A study of Mus musculus with 12 samples.

Results

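Gm13889, Ankrd13a, Otud1 and Csrnp1 are 4 of the 12752 genes counted in mouse tibialis anterior muscle, and their function there is little known. They were chosen by their counts in these libraries, under a rule that names very consistent rises on induction of Dux. Their rise is therefore given here as a description and without a test. The rule sets no threshold on that rise. Dux is a homeodomain transcription factor of the early mouse embryo and the counterpart of human DUX4, whose misexpression causes facioscapulohumeral muscular dystrophy, and the study asked how muscle gene expression changes when Dux is produced from a doxycycline-inducible vector.

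The muscles came from male C57BL/6 mice injected at 8 weeks of age. Every group carried AAV:TET, the adeno-associated virus vector of the doxycycline switch, so no group is uninjected muscle. DUX_DOX muscles received AAV:Dux and chow with 600 mg/kg doxycycline, EV_DOX muscles the empty vector and the same chow, DUX muscles AAV:Dux and normal chow, and EV muscles the empty vector and normal chow, with 3 libraries per group. The empty vector was the control in the limb opposite to the Dux vector, and chow was changed 7 days after injection for a further 2 or 7 days, the labels not saying which for these libraries. The labels do not link the limbs of 1 animal, and the promoters of the vectors and the cell types that took them up are not stated in the labels.

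The 12 libraries held 11880593 to 13811999 counts, and levels are given as CPM, counts scaled to the adjusted library sizes of edgeR. The tissue label was met by the fibre markers, which summed to between 140037 and 157247 CPM in DUX_DOX and between 170171 and 184974 CPM in EV_DOX. Marker counts are for DUX_DOX against EV_DOX at an edgeR adjusted p below 0.05. Over all genes 14.9% were higher and 10.3% lower. Of the 10 fibre markers, 0 were higher and 3 lower. Markers of macrophages and monocytes were higher in DUX_DOX for 21 of 23 measured, with sums of 388 to 559 CPM in DUX_DOX, 153 to 217 CPM in EV_DOX, 231 to 256 CPM in DUX and 162 to 251 CPM in EV. Markers of fibro-adipogenic cells were higher for 1 of 10 and of neutrophils for 1 of 2, and 1 of 10 endothelial markers was lower. The counts of 1 of 10 lie close to the shares over all genes. Of the 8 genes listed for satellite cells, 3 were higher. That list includes Des, which muscle fibres also express, so its calls are not specific to satellite cells. The 7 T and NK cell markers are not analysed here. The part of these cell types in the values below was not tested, and in whole muscle more cells of a type and more RNA per cell cannot be told apart.

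Ubiquitin is attached to proteins as a signal for degradation, for sorting of receptors into endosomes or for assembly of signalling complexes, and deubiquitinases take it off again. Otud1 encodes a deubiquitinase of the ovarian tumour (OTU) family, reported in human and mouse cells to act on proteins such as p53, SMAD7, IRF3, YAP and KEAP1. Ankrd13a encodes an ankyrin-repeat protein with ubiquitin-interacting motifs that binds ubiquitinated receptors such as EGFR at the plasma membrane. Csrnp1, also called Axud1, encodes a cysteine- and serine-rich nuclear protein whose human counterpart was found as a gene induced by AXIN1. Gm13889 is a predicted protein-coding gene with no role given here.

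In GRCm38, Otud1 (ENSMUSG00000043415) lies on chromosome 2 from 19657752 to 19660583 on the plus strand and has 1 exon of 2832 bases. Ankrd13a (ENSMUSG00000041870) lies on chromosome 5 from 114774677 to 114806200 on the plus strand, with up to 15 exons in 6 transcripts and 5983 exonic bases. Csrnp1 (ENSMUSG00000032515) lies on chromosome 9 from 119971163 to 119984658 on the minus strand, with up to 5 exons in 5 transcripts and 3473 exonic bases. Gm13889 (ENSMUSG00000087006) lies on chromosome 2 from 93955810 to 93957201 on the minus strand, with 2 transcripts of 1 exon each and 1392 exonic bases. Otud1 overlaps no other gene of the annotation used. Gm13889 shares 289 exonic bases with Gm27027 on its own strand, Ankrd13a shares 307 with the antisense gene 4930515G01Rik, and Csrnp1 shares 224 with the antisense gene 1700019L13Rik. These 3 overlapping genes are not analysed here, and since the sources used here give no strand setting of the counting, reads in the shared bases cannot be told apart.

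The promoter windows below, from RefSeq on GRCm38.p6, run from 250 bases before to 50 bases after a gene start and are shown as a description. They are written 5′ to 3′ on the strand of the gene, in lower case, with AP-1 motif letters in capitals. The table used holds 7 windows for 3 of the 4 genes, and 1 is printed for each gene. That of Csrnp1 is chr9:119982974-119983273 on the minus strand, that of Otud1 is chr2:19657481-19657780 on the plus strand, and that of Ankrd13a is chr5:114774698-114774997 on the plus strand.
Csrnp1: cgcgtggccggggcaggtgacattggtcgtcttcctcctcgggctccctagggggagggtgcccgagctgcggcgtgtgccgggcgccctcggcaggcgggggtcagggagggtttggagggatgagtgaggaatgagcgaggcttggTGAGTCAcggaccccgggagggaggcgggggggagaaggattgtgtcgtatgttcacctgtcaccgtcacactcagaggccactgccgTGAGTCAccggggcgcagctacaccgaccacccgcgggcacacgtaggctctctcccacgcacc
Otud1: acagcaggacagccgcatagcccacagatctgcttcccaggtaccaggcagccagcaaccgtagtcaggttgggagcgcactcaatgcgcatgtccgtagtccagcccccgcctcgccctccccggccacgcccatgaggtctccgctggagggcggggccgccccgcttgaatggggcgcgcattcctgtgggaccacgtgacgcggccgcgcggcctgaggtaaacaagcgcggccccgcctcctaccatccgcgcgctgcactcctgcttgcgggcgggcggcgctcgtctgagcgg
Ankrd13a: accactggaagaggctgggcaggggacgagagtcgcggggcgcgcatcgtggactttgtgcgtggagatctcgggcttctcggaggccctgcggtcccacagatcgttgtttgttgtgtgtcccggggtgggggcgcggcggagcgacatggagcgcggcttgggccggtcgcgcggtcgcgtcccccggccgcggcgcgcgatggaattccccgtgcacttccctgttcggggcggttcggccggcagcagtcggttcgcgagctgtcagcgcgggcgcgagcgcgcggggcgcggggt

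The 8 motifs searched on both strands were a mouse Dux site ATTCAATCA, a human DUX4 site ATCTAATCA, the cyclic AMP response element TGACGTCA, AP-1 TGANTCA, the amino acid response element TGATGNAA, a heat shock inverted pair GAANNTTC, the Smad palindrome GTCTAGAC and the TATA box TATAAA. In all 7 windows the search found only the 2 AP-1 matches of the Csrnp1 window, both TGAGTCA, at 102 and 14 bases before the start that this window is set on. That start is 1 of 4 for Csrnp1 in the table and lies inside the gene span given above. No other motif was searched for, and a motif farther from the start is outside these windows. AP-1 letters occur in 7.81% of the 32817 windows of the table, and 151 windows (0.460%) hold 2 or more matches. The shares of windows with the other motifs were 0.183% for the Dux site, 0.143% for the DUX4 site, 1.79% for the cyclic AMP element, 3.97% for the amino acid element, 7.86% for the heat shock pair, 0.213% for the Smad palindrome and 13.6% for the TATA box. The windows were rich in G and C, at 70.3% for Otud1, 72.7% and 79.7% for Ankrd13a and 57.7% to 78.3% for the 4 windows of Csrnp1, against a median of 52.7% over all windows.

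All 4 genes were higher in all 3 libraries with induced Dux than in any of the other 9 libraries, by group means 5.23-fold to 33.2-fold above EV_DOX. Otud1, the deubiquitinase, had 315, 335 and 260.3 CPM in the 3 DUX_DOX libraries, 11.1, 20.1 and 9.31 CPM in EV_DOX, 10.99, 12.9 and 12.6 CPM in DUX, and 8.31, 12.3 and 11.8 CPM in EV. The DUX_DOX libraries stood alone, while the values of EV_DOX, DUX and EV overlapped and EV_DOX 2 was the highest of the 9. The raw counts were 4134, 4689 and 3368 in DUX_DOX and 152, 259 and 119 in EV_DOX. The log2 fold change was 4.49 (SE 0.23) against EV_DOX, or 22.5-fold, and 4.64 (SE 0.23) against DUX.

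Ankrd13a, the ubiquitin-binding adaptor, had 124, 131 and 127 CPM in DUX_DOX, 26.2, 25.1 and 21.8 CPM in EV_DOX, 24.6, 21.5 and 22.6 CPM in DUX, and 24.1, 23.6 and 25.8 CPM in EV. It had the smallest fold of the 4 and the tightest libraries, and its other groups overlapped. Its counts were 1629, 1833 and 1645 in DUX_DOX and 359, 324 and 278 in EV_DOX. The log2 fold change was 2.39 (SE 0.09) against EV_DOX, or 5.23-fold, and 2.47 (SE 0.09) against DUX.

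Csrnp1, the nuclear protein gene, had 28.9, 28.8 and 26.3 CPM in DUX_DOX, 3.21, 2.94 and 2.5 CPM in EV_DOX, 2.69, 3.69 and 2.76 CPM in DUX, and 2.67, 2.08 and 2.53 CPM in EV. The DUX_DOX values lay close together and above all others. EV_DOX overlapped both DUX and EV, while every DUX library lay above every EV library. Its counts were 380, 403 and 340 in DUX_DOX and 44, 38 and 32 in EV_DOX. The log2 fold change was 3.27 (SE 0.15) against EV_DOX, or 9.66-fold, and 3.20 (SE 0.15) against DUX.

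Gm13889 had 76.4, 83.0 and 102 CPM in DUX_DOX, 2.48, 2.25 and 3.13 CPM in EV_DOX, 2.53, 3.46 and 2.84 CPM in DUX, and 2.04, 2.48 and 2.15 CPM in EV. The DUX_DOX libraries stood alone, with replicate 3 the highest. EV_DOX overlapped both DUX and EV, while every DUX library lay above every EV library. Its counts were 1003, 1160 and 1323 in DUX_DOX and 34, 29 and 40 in EV_DOX. The log2 fold change was 5.05 (SE 0.15) against EV_DOX, or 33.2-fold, and 4.88 (SE 0.15) against DUX.

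**Figure D1:**
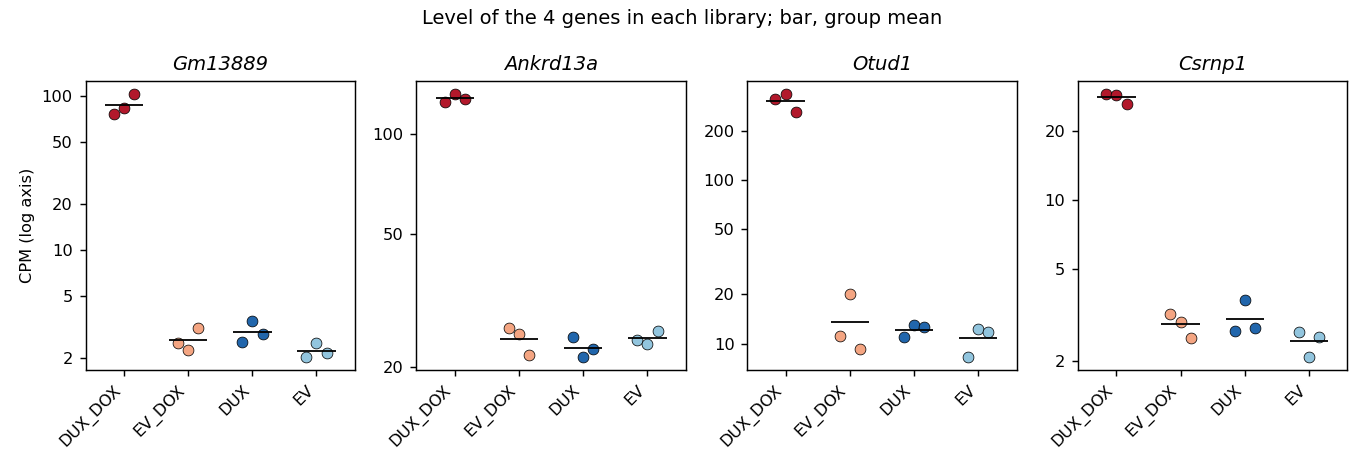
CPM on a log axis for the 4 genes in each of the 12 libraries, grouped as DUX_DOX, EV_DOX, DUX and EV, with a bar at each group mean (n = 3). The 3 DUX_DOX points of each gene lie above all other points, such as 124 CPM or more for Ankrd13a against 26.2 CPM or less.

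The lowest DUX_DOX library exceeded the highest of the other 9 libraries 22.1-fold for Gm13889, 13.0-fold for Otud1, 7.12-fold for Csrnp1 and 4.74-fold for Ankrd13a. Of the 12751 genes tested, 31 had a larger ratio than Gm13889, 40 than Otud1, 54 than Csrnp1 and 74 than Ankrd13a. Every DUX_DOX library stood above all others for 2000 of the 12751 genes (15.7%), so the absence of overlap is shared with many genes and was also what the choice of the 4 fixed. In edgeR's quasi-likelihood test 1905 genes (14.9%) were higher and 1319 (10.3%) lower in DUX_DOX against EV_DOX at an adjusted p below 0.05, and the 4 members are among the higher ones by choice. Without DUX_DOX 3 the test called 2109 genes in both directions together. Together the 4 genes took 0.0556%, 0.0650% and 0.0562% of the counts of the DUX_DOX libraries, and between 0.00350% and 0.00505% of those of EV_DOX.

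The evenness, on which the genes were chosen, is given as a description. The coefficient of variation over the 3 DUX_DOX libraries was 2.75% for Ankrd13a, of which counting alone would give 2.42%, and 5.37% for Csrnp1, with 5.17% from counting. Otud1 varied by 12.8% and Gm13889 by 15.4% in DUX_DOX, with 1.57% and 2.93% from counting. The median biological coefficient of variation of the genes tested, which leaves out counting noise, was 10.6% in the edgeR fit. By this measure Otud1 and Gm13889 were not more even in DUX_DOX than the median gene. The highest of the DUX_DOX libraries was replicate 3 for Gm13889, replicate 2 for Otud1 and Ankrd13a and replicate 1 for Csrnp1, and replicate 3 was the lowest for Otud1 and Csrnp1. In EV_DOX the coefficient of variation of Otud1 was 42.7% (counting 7.52%), with EV_DOX 2 at 20.1 CPM. Without EV_DOX 2 the log2 fold change of Otud1 was 4.86.

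Per kilobase of exon, which allows levels to be set between genes, Otud1 had a mean of 107 CPM per kb in DUX_DOX, Gm13889 62.6, Ankrd13a 21.3 and Csrnp1 8.07 CPM per kb, and the libraries of neighbouring genes in this order did not overlap. In EV_DOX the means were 4.76 CPM per kb for Otud1, 4.07 for Ankrd13a, 1.88 for Gm13889 and 0.831 for Csrnp1. There the Otud1 libraries (3.29 to 7.08 CPM per kb) and the Ankrd13a libraries (3.64 to 4.38) overlapped, so the order of these 2 genes is not resolved. Gm13889 thus stood below Ankrd13a per kb in EV_DOX and above it in DUX_DOX. The lengths join the exons of all transcripts of a gene, and the annotation used in the counting is not known. Of the 1392 exonic bases of Gm13889, 289 are shared with Gm27027, so levels set between genes are approximate.

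None of the 4 genes passed the test for the Dux vector without doxycycline or for doxycycline without the Dux vector. The genes were not chosen on these contrasts, but a choice for evenness over all 12 columns may favour genes with little spread among these libraries too. In DUX against EV, Gm13889 averaged 2.94 ± 0.48 CPM in DUX and 2.22 ± 0.23 CPM in EV (SD, n = 3 each), a log2 fold change of 0.41 (SE 0.21, edgeR adjusted p = 0.354) with a 95% interval of -0.04 to 0.85. Csrnp1 averaged 3.05 ± 0.56 CPM in DUX and 2.43 ± 0.30 CPM in EV, a log2 fold change of 0.33 (edgeR adjusted p = 0.398, interval -0.05 to 0.71). Both intervals include no change and also a rise of more than 1.5-fold, up to 1.80-fold for Gm13889 and 1.63-fold for Csrnp1. Every DUX library lay above every EV library for these 2 of the 4 genes and for 1436 of the 12751 genes (11.3%). The margins were narrow. For Csrnp1, DUX 1 and EV 1 had 34 counts each, and for Gm13889, DUX 1 had 32 and EV 2 had 31. The order of these libraries thus depends on their scaling.

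Otud1 averaged 12.2 ± 1.0 CPM in DUX and 10.8 ± 2.2 CPM in EV, a log2 fold change of 0.17 (edgeR adjusted p = 0.745, interval -0.33 to 0.68). Ankrd13a averaged 22.9 ± 1.5 CPM in DUX and 24.5 ± 1.1 CPM in EV, a log2 fold change of -0.10 (edgeR adjusted p = 0.611, interval -0.29 to 0.09), the narrowest interval of the 4 genes. None of the 4 was called, as was none of the 12751 genes (0%) in edgeR, where 2012 genes had an unadjusted p under 0.05, the 4 not among them. The DESeq2 Wald test called 115 genes and limma-voom 0, and edgeR called 118 genes when EV 2 was left out, none of the 4 among them under any of these settings.

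In EV_DOX against EV, Otud1 averaged 13.5 ± 5.8 CPM in EV_DOX and 10.8 ± 2.2 CPM in EV, a log2 fold change of 0.32 (edgeR adjusted p = 0.748, interval -0.18 to 0.82), and of -0.07 without EV_DOX 2. The log2 fold change was 0.25 for Csrnp1 (adjusted p = 0.760, interval -0.13 to 0.63), 0.23 for Gm13889 (adjusted p = 0.796, interval -0.22 to 0.69) and -0.01 for Ankrd13a (adjusted p = 0.991, interval -0.20 to 0.18). The test called 5 of 12751 genes (0.0392%) and none of the 4, from 0 to 10 genes when 1 library was left out, against 12 by DESeq2 and 0 by limma-voom, and 999 genes had an unadjusted p under 0.05, the 4 not among them. Outside DUX_DOX the levels of Ankrd13a spanned 1.22-fold over the 9 libraries, those of Gm13889 1.70-fold, of Csrnp1 1.77-fold and of Otud1 2.41-fold.

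**Figure D2:**
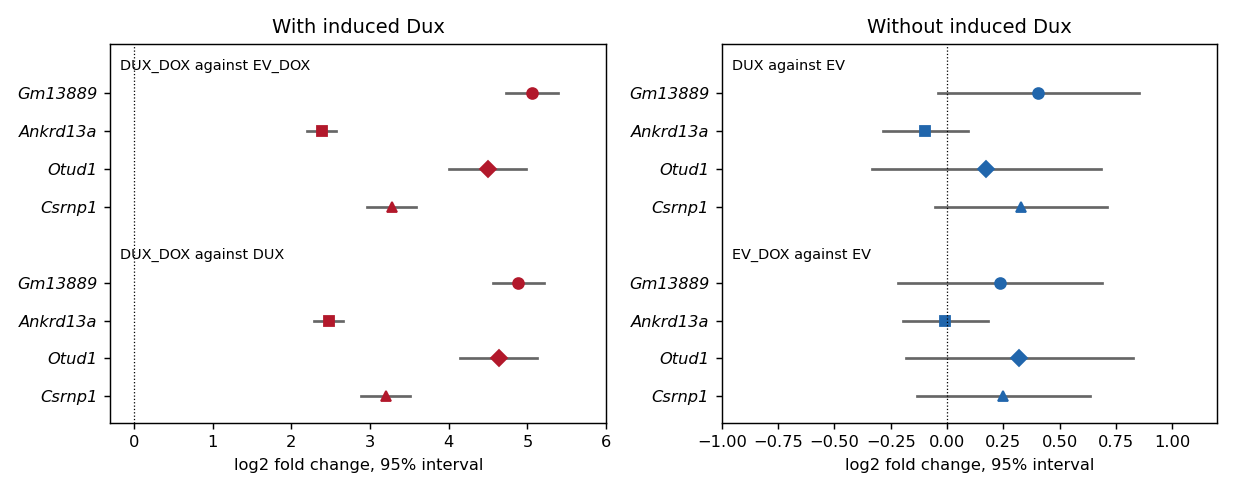
Log2 fold changes of the 4 genes with 95% intervals from the edgeR fit, for DUX_DOX against EV_DOX and against DUX on the left and for DUX against EV and EV_DOX against EV on the right, where the axis is narrower. The values lie between 2.39 and 5.05 on the left, and every interval includes 0 on the right.

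Where Dux was not induced, 1 of the 6 pairs of these genes passed a test of correlation. That call was lost in 7 of the 9 sets that left out 1 library. Over the 9 libraries of EV_DOX, DUX and EV, the pairs were compared on log2 CPM by exact two-sided permutation tests. Exact means that all pairings were counted. The permutations took no account of group or of shared animals, so the p-values assume that the 9 libraries can be exchanged. Gm13889 and Ankrd13a ran against each other, with r = -0.81 (exact p = 0.00824, adjusted p = 0.0494) and rho = -0.75 (exact p = 0.0255, adjusted p = 0.153). Without DUX 2 and EV_DOX 3, the libraries farthest from the median of Gm13889, r was -0.49 (exact p = 0.263). Leaving out these 2 narrows the range of Gm13889 and leaves fewer libraries, so this cannot show whether a relation is absent. The pair failed the adjusted threshold in 7 of the 9 sets that left out 1 library. The adjusted p-values of these 7 lay between 0.0924 (without DUX 1) and 0.256 (without DUX 2). Over the 9 sets r ran from -0.90 to -0.72. With the log2 CPM centred on each group r was -0.83. Centred values cannot be exchanged freely between groups, so the permutation test is not exact for them and this r is a description. The other 5 pairs had r from -0.09 to 0.39 and adjusted p-values of 0.907 or more.

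Of the relatives of Otud1, 5 passed the test. Their fold changes lay below that of Otud1, which was chosen for its rise. Among the other 14 measured genes listed as OTU deubiquitinases, 3 were higher and 2 lower in DUX_DOX against EV_DOX, with a median log2 fold change of 0.12, beside -0.01 and the 14.9% higher and 10.3% lower over all genes. In DUX_DOX against DUX, 3 genes were higher and 2 lower, beside 2101 higher (16.5%) and 1671 lower (13.1%) of all genes. Otulin, which takes linear ubiquitin chains apart, had 26.6 ± 1.0 CPM in DUX_DOX and 11.2 ± 0.6 CPM in EV_DOX, a rise of 1.25 (SE 0.13, adjusted p = 1.31e-05). Fam105a, an OTU-fold relative of Otulin, is 1 of the 3 higher genes but is not known as an active deubiquitinase. It rose by 1.57 (SE 0.29, adjusted p = 0.00147) from a low level, with 2.81 CPM in DUX_DOX and 0.935 CPM in EV_DOX. Its counts in EV_DOX were 15, 13 and 9. Yod1, a deubiquitinase that works with the segregase VCP, rose by 0.89 (SE 0.17, adjusted p = 0.00182). Against DUX the rises were 1.18 for Otulin, 1.01 for Fam105a and 0.92 for Yod1.

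Otud4 fell by 0.43 (SE 0.11, adjusted p = 0.00876), with 55.9 CPM in DUX_DOX and 75.4 CPM in EV_DOX. Otud6b was lower by the log2 value -0.31 (adjusted p = 0.0358), a call lost with only these groups in the fit (adjusted p = 0.0692) and without DUX_DOX 2 (0.0878), DUX_DOX 3 (0.148) and EV_DOX 3 (0.129). Over all settings its adjusted p ran between 0.0117 and 0.148. The other 9, Otub1, Otub2, Otud3, Otud5, Otud7b, Tnfaip3, Zranb1, Vcpip1 and Alg13, had log2 fold changes between -0.18 and 0.21 and were not called with all libraries. Tnfaip3, the OTU enzyme A20 of NF-kB signalling, had 9.28 CPM in DUX_DOX and 8.21 CPM in EV_DOX.

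Genes listed under reported OTUD1 substrates and partners had log2 fold changes between -0.29 and 0.94. The list is not of direct substrates alone, since it holds the p53 target Cdkn1a and Nfe2l2, whose protein KEAP1 holds down. Its counts are thus not counts of OTUD1 substrates. Of 14 measured, 6 were higher and 1 lower, with a median of 0.22, beside 14.9% and 10.3% of all genes. In DUX_DOX against DUX, 8 genes were higher and 1 lower, beside 16.5% and 13.1%. Mcl1, an anti-apoptotic protein, rose by 0.47 (SE 0.08, adjusted p = 0.000823), Nfe2l2, the antioxidant regulator NRF2 that KEAP1 holds down, by 0.33 (SE 0.07, adjusted p = 0.00334) and Cdkn1a, a p53 target that stops the cell cycle, by 0.94 (SE 0.25, adjusted p = 0.0128). Trp53, Mdm2 and Yap1 rose as well, by 0.34, 0.30 and 0.23. Mavs, an antiviral adaptor, had -0.29 (adjusted p = 0.0183), a call lost with only these groups in the fit (0.0638) and without DUX_DOX 2 (0.0598) or EV_DOX 1 (0.0682). Over all settings it ran between 0.0104 and 0.0682. With only these groups in the fit, and also without EV_DOX 3, 3 of the 14 were called higher. Smad7, the inhibitory Smad, had 0.18 (adjusted p = 0.412) against EV_DOX and was called against DUX, at 0.62 (adjusted p = 0.00885). Keap1 had -0.27 (adjusted p = 0.0523) against EV_DOX and -0.13 (adjusted p = 0.331) against DUX.

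The measured paralogues of Ankrd13a were not called in DUX_DOX against EV_DOX, and Ankrd13c was called against DUX. Ankrd13b had 18.8 ± 0.6 CPM in DUX_DOX and 17.1 ± 1.5 CPM in EV_DOX, 0.14 on the log2 scale (adjusted p = 0.302), and Ankrd13c had 26.5 ± 2.4 CPM in DUX_DOX and 23.3 ± 2.4 CPM in EV_DOX, 0.18 (adjusted p = 0.166). Against DUX, Ankrd13c had 0.31 (adjusted p = 0.0233) and Ankrd13b 0.23 (adjusted p = 0.0845). Ankrd13d is not analysed here. Of the 20 endocytic ubiquitin adaptor and ubiquitin genes counted here beside Ankrd13a, 3 (15.0%) were higher and 0 lower, with a median of 0.11, a share higher close to the 14.9% of all genes. Against DUX, 5 genes were higher and 0 lower, beside 16.5% and 13.1% of all genes. Hgs and Ubap1, parts of the ESCRT machinery that sorts ubiquitinated receptors, rose by 0.61 (SE 0.09, adjusted p = 0.000238) and 0.60 (SE 0.09, adjusted p = 0.000193). The polyubiquitin gene Ubb rose by 0.61 (SE 0.11, adjusted p = 0.00117) and had 377 ± 24 CPM in DUX_DOX and 248 ± 30 CPM in EV_DOX. Egfr, a receptor that ANKRD13A is reported to bind in human cells, had 17.6 CPM in DUX_DOX and 15.6 CPM in EV_DOX, 0.18 (adjusted p = 0.541).

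The paralogue Csrnp2 rose with Csrnp1 and by less, though Csrnp1 was chosen for its rise. It had 6.25, 8.22 and 6.42 CPM in DUX_DOX and 2.99, 3.41 and 4.30 CPM in EV_DOX, 0.97 higher on the log2 scale (SE 0.18, adjusted p = 0.00174), without overlap. Csrnp3 is not analysed here. Of 15 genes of the CSRNP family and of AXIN and Wnt feedback measured beside Csrnp1, 2 (13.3%) were higher and 0 lower, with a median of 0.04, beside 14.9% and 10.3% of all genes. Against DUX, 4 genes were higher and 0 lower, beside 16.5% and 13.1%. Beside Csrnp2, the gene called against EV_DOX was Myc, a growth regulator, with 8.09 ± 1.32 CPM in DUX_DOX and 3.55 ± 0.22 CPM in EV_DOX, a rise of 1.18 (SE 0.21, adjusted p = 0.00107). Myc had 6.17, 5.23 and 3.81 CPM in the DUX libraries. Against DUX its rise was smaller, at 0.67 (adjusted p = 0.0226), and that of Csrnp2 larger, at 1.15 (adjusted p = 0.00046). Axin1 had 0.26 (adjusted p = 0.0922) against EV_DOX and was called against DUX, at 0.32 (adjusted p = 0.0382). Axin2, the standard readout of Wnt signalling, had 0.11 (adjusted p = 0.647) against EV_DOX and 0.17 (adjusted p = 0.434) against DUX.

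**Figure D3:**
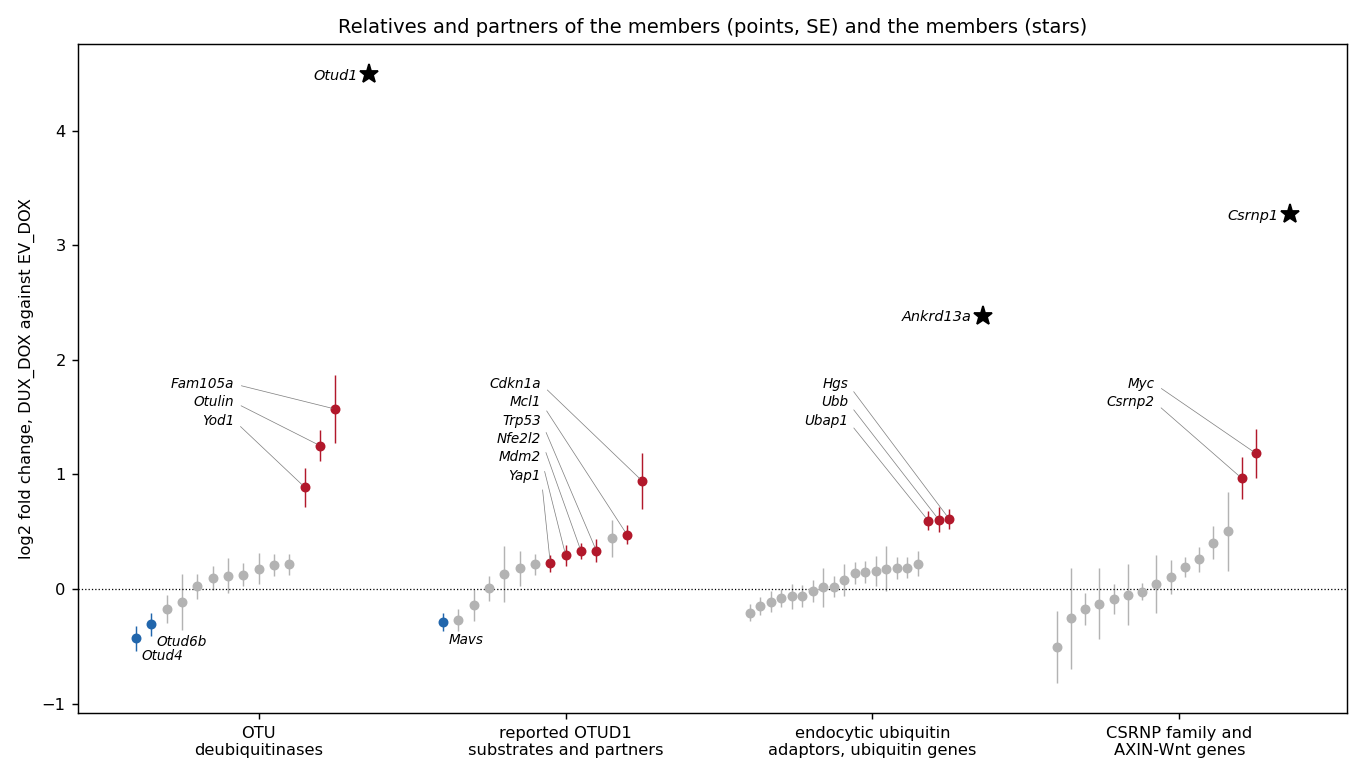
Log2 fold change of DUX_DOX against EV_DOX for the genes of the 4 lists (points with SE, red higher, blue lower, grey not called) and for Otud1, Ankrd13a and Csrnp1 (stars). No list gene reaches the member beside it, the highest being Fam105a at 1.57, but the members were chosen for their rise.

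The nearest measured gene on either side of each member was taken by the lower coordinate of the gene spans. Of these 8 genes, 1 was higher and 0 lower in DUX_DOX against EV_DOX, a share close to that of all genes for the higher ones (14.9%). Cx3cr1, which spans Csrnp1 but has a lower start coordinate than Gorasp1, is outside the 8. It was also called higher, as given below. Xirp1, which encodes an actin-binding repeat protein of striated muscle, starts its span 29.1 kb from Csrnp1 on the same strand of chromosome 9 (120013755 to 120023598). It had 2282, 2446 and 2126 CPM in DUX_DOX and 118, 126 and 111 CPM in EV_DOX, a rise of 4.27 (SE 0.17, adjusted p = 1.13e-09). In DUX it had 124, 184 and 108 CPM and in EV 129, 127 and 133 CPM, so it too stood apart only in DUX_DOX. On the other side of Csrnp1, at 33.6 kb, Gorasp1 of the Golgi had a log2 fold change of -0.17 and was not called.

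Csrnp1 lies within the span of Cx3cr1, on the same strand and with 0 shared exonic bases. Cx3cr1, a fractalkine receptor of macrophages and monocytes and 1 of the marker genes above, rose by 2.06 (SE 0.45, adjusted p = 0.00391), with 3.28, 4.08 and 4.10 CPM in DUX_DOX and 1.53, 0.775 and 0.391 CPM in EV_DOX. Whether reads of either gene were counted for the other was not tested.

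The flanking genes of the other members were not called. Git2, which overlaps the start of Ankrd13a on the other strand, had a log2 fold change of -0.11, and 1500011B03Rik, 2.00 kb beyond its end, had 0.14. Beside Gm13889, Alkbh3, a DNA repair enzyme at 23.3 kb, had -0.14 and Accs, at 105.9 kb, had -0.16. Beside Otud1, which has no measured neighbour within 249 kb, Msrb2 had -0.48 (adjusted p = 0.108) and Etl4 0.19. Msrb2, a mitochondrial methionine sulfoxide reductase, was called when EV_DOX 1 was left out (-0.70, adjusted p = 0.0112), in a range from 0.0112 to 0.437.

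**Figure D4:**
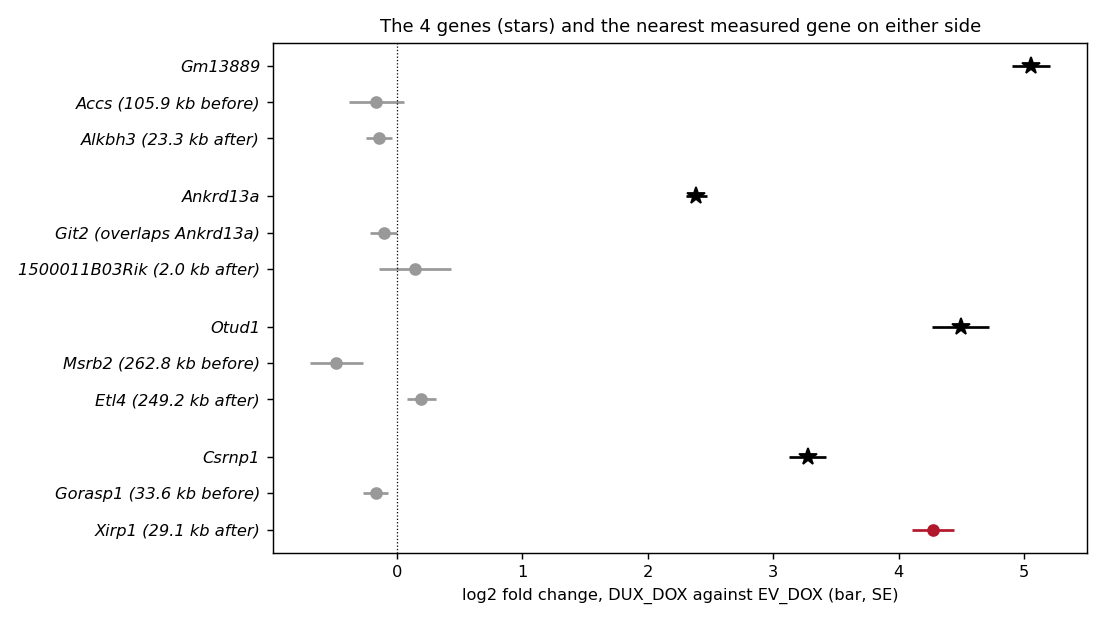
Log2 fold change of DUX_DOX against EV_DOX (bar, SE) for the 4 genes (stars) and the nearest measured gene on either side of each by lower coordinate, with its distance (grey not called, red higher). Cx3cr1, which spans Csrnp1, is not shown. Xirp1 beside Csrnp1 stands at 4.27, and the other 7 neighbours lie between -0.48 and 0.19.

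The genes with the profiles most like the 4 over the 12 libraries were looked up, predicted and unnamed genes left out. Likeness was the root mean square difference of log2 CPM centred on the mean of the 12 libraries, among genes with a mean of at least 5 CPM (9051 compared for Gm13889 and 9050 for each of the others), and a smaller value is more alike. It is dominated by the step between DUX_DOX and the other 9 libraries, which the choice of the 4 used, so it is a description. For Gm13889 the nearest were Hspb1, a small heat shock protein (0.304), Otud1 (0.410) and Xirp1 (0.444). For Otud1 they were Hspb1 (0.293), Peg10, an imprinted gene derived from a retrotransposon (0.363), and Xirp1 (0.382). Hspb1 averaged 1145 CPM in DUX_DOX and 55.6 CPM in EV_DOX, and Peg10 38.1 CPM in DUX_DOX and 1.45 CPM in EV_DOX.

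The genes nearest to Ankrd13a were Btg2, an antiproliferative gene (0.173), Olfm1, a secreted olfactomedin (0.174), and Rcan1, an inhibitor of the phosphatase calcineurin (0.181). Rcan1 averaged 252 CPM in DUX_DOX and 46.7 CPM in EV_DOX, a log2 fold change of 2.43, beside 2.39 for Ankrd13a. The genes nearest to Csrnp1 were Hsp90aa1, the inducible cytosolic chaperone (0.223), Tubb6, a beta-tubulin (0.225), and Enah, a regulator of actin filaments (0.254). Hsp90aa1 averaged 191 CPM in DUX_DOX and 19.6 CPM in EV_DOX, a log2 fold change of 3.28, beside 3.27 for Csrnp1. Among the members, Gm13889 and Otud1 were the most alike (0.410), then Ankrd13a and Csrnp1 (0.429), and Gm13889 and Ankrd13a the least (1.16), which follows the distances between their fold changes.

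**Figure D5:**
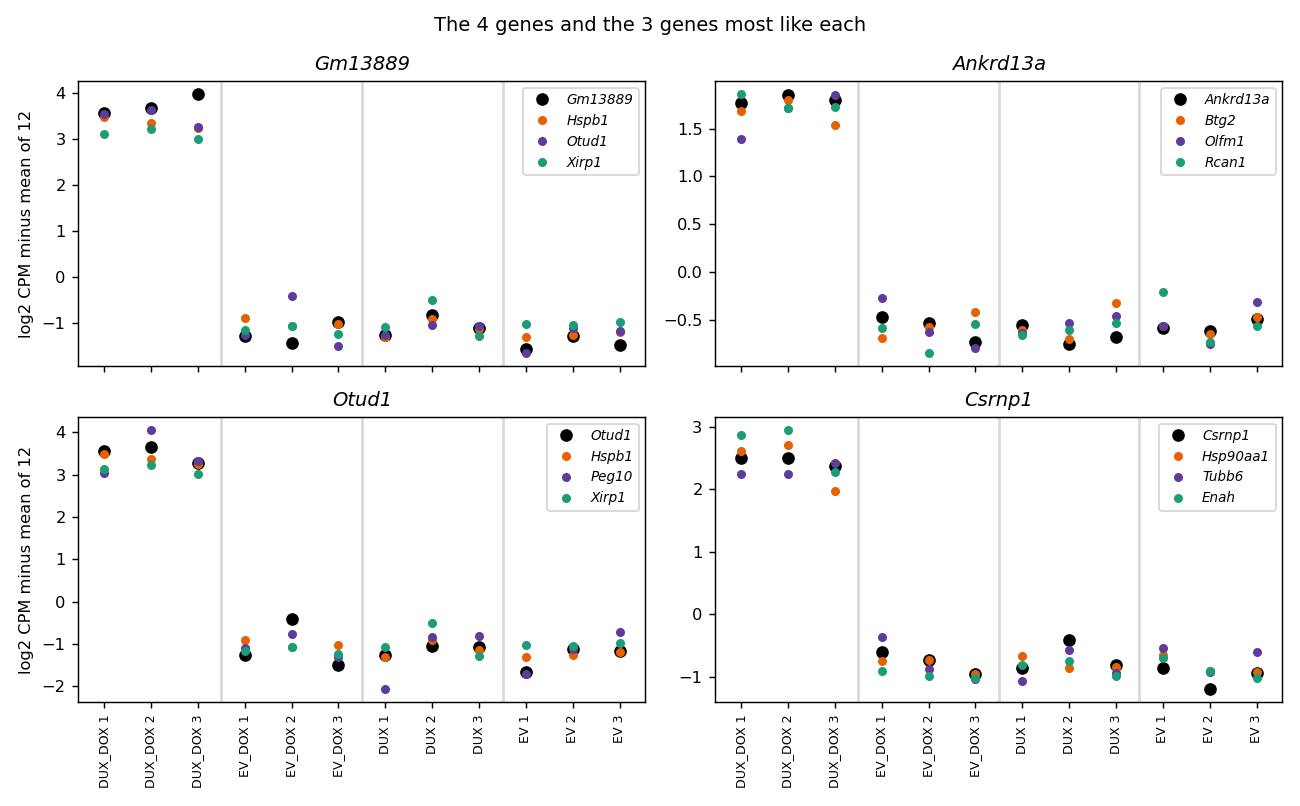
Log2 CPM minus the mean of the 12 libraries for each of the 4 genes (black) and the 3 named genes most like it (coloured), by library. In each panel the 3 DUX_DOX libraries stand above the other 9, and the panels differ in the height of that step, which follows log2 fold changes from 2.39 for Ankrd13a to 5.05 for Gm13889.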

How the data were processed

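RNA of 12 tibialis anterior muscles was sequenced in 4 groups of 3 libraries, from 200 ng of RNA each with poly-A selection by TruSeq reagents, per the labels. The values are raw read counts per gene as deposited, made by the authors on GRCm38 with bcl2fastq 2.17.1.14, STAR and featureCounts, per the submitters' processing notes. The sources used here give no other versions, annotation or strand setting. The table holds 12752 genes, the lowest mean count of a gene is 10.0, and less counted genes are not analysed here, nor is the Dux gene. All columns were mapped by name. Libraries of a group differed beyond sampling noise (chi-square per degree of freedom of at least 4.81), so each counts as 1.

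Gene models came from GENCODE M21, in which 12723 identifiers were found. The main test was edgeR's (version 4.0.16, R 4.3.3) quasi-likelihood F test on both sides. It used 1 mean per group over all 12 libraries, TMM scaling (factors between 0.916 and 1.12) and edgeR's own filter on low counts, after which 12751 genes remained. P-values were adjusted by Benjamini-Hochberg over all genes tested, with a threshold of 0.05. Fold changes have a prior count of 0.125, and log2 CPM for correlations and likeness a prior count of 2. Separate animals within a group are not stated in the labels, so p-values measure only the spread between libraries. In 1 simulation per contrast with the depth and spread of these libraries, 67, 67 and 66 of 12752 genes were changed 1.5-fold, 2-fold and 4-fold. The test found 38.8%, 80.6% and 98.5% of these for DUX against EV, and 43.3%, 76.1% and 95.5% for EV_DOX against EV. The changed genes were drawn over all levels, so these are not rates for genes with few counts, such as Gm13889 and Csrnp1 outside DUX_DOX. The members and lists were chosen with earlier results of these data known.

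The text names the 4 members, their paralogues, the other genes of the OTU list and the nearest measured gene on either side by lower coordinate. It also names the 3 genes most like each member, and of each list the 3 called genes with the smallest p in each direction. Further list genes called and Cx3cr1, Tnfaip3, Smad7, Keap1, Egfr, Axin1 and Axin2 were named after their values were seen, and 1 list gene is not reported here. List counts in DUX_DOX against DUX and the count of genes with every DUX library above every EV library were added after the data were seen. Alternatives were other scalings, no filter, DESeq2 1.42.0, limma-voom 3.58.1, only the groups compared, the replicate number as a block and each library left out.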

Additional observations from a re-analysis of the deposited data

How the results depend on the processing

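For the 4 genes, the log2 fold changes of DUX_DOX against EV_DOX and against DUX moved by less than the replicate SD under all 19 alternatives except that of Otud1 against EV_DOX, which ran from 4.29 to 4.86 with 1 library left out, the highest without EV_DOX 2. None of the 4 was called in DUX against EV or EV_DOX against EV under any alternative. Without 1 library the genes called numbered 2109 to 3355 in DUX_DOX against EV_DOX, 0 to 118 in DUX against EV (118 without EV 2) and 0 to 10 in EV_DOX against EV (10 without EV_DOX 1), and the DESeq2 Wald test called 115 in DUX against EV. EV_DOX against EV had 1 gene with upper-quartile factors, 12 in DESeq2, and 0 in limma-voom and with only the groups compared. The replicate numbers gave no clear pairing, as 4 of 18 same-numbered pairs had deviations correlated above 0.1 (-0.42 to 0.20). Only 3 libraries matched best with their own number. The 18 include pairs on unlike chow, which opposite limbs of 1 animal would not give, so this check cannot exclude shared animals. Between DUX and EV the correlations were -0.10, 0.18 and 0.12 for replicates 1, 2 and 3. Between DUX_DOX and EV_DOX they were -0.11, 0.09 and 0.005. With the replicate block EV_DOX against EV had 0 calls and no other call on the 4 genes changed. With DESeq2 size factors, upper-quartile factors or the DESeq2 test, 2 genes of the OTUD1 partner list and 1 endocytic gene were lower. With only the groups compared, 1 OTU gene was lower, and 3 genes of the partner list were higher and 0 lower. Without 1 library the OTU genes lower numbered 1 to 2, and the genes of the partner list higher 3 to 7 and lower 0 to 2. In the same sets the endocytic genes lower numbered 0 to 1 and the flanking genes called 1 to 2. The share of calls that were higher was 59.1%, and 50.9% with upper-quartile factors, which moved the median of all genes to -0.04. Otud5, not called otherwise, was called without DUX_DOX 1 (adjusted p = 0.0355, in a range up to 0.290).

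Values that passed no test could change sign. With upper-quartile factors Ankrd13a in EV_DOX against EV was 0.0069 and Otud7b in DUX_DOX against EV_DOX was -0.011. With 1 library left out the range was -0.065 to 0.066 for Ankrd13a and -0.069 to 0.52 for Otud1 in EV_DOX against EV, and in DUX_DOX against EV_DOX -0.38 to 0.082 for Otub2, -0.072 to 0.15 for Otud7b, -0.051 to 0.16 for Vcpip1, -0.33 to 0.047 for Accs, -0.20 to 0.0068 for Git2 and -0.019 to 0.30 for 1500011B03Rik. The correlation of Gm13889 and Ankrd13a was -0.80 with upper-quartile factors (exact permutation, adjusted p = 0.0643) and -0.90 to -0.72 with 1 library left out. Those ranges were -0.36 to 0.39 for Gm13889 and Otud1, -0.098 to 0.55 for Gm13889 and Csrnp1, -0.081 to 0.29 for Ankrd13a and Otud1, and -0.32 to 0.46 for Ankrd13a and Csrnp1. Centred on each group, Gm13889 and Csrnp1 had -0.048 and Ankrd13a and Csrnp1 0.18. The causes were not tested. With 26 to 48 counts per library outside DUX_DOX, Gm13889 and Csrnp1 carry a counting error of 15.9% or more per library at their group means, which limits what their comparisons without induced Dux can show.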
